A study of Mus musculus with 20 samples.

Results

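The utricle of adult female mice with intact ovaries was described from the 5 sham + v libraries, which were chosen by their treatment label alone from 20 libraries in all. The mice of the sham + v group were of the inbred strain C57BL/6J. They were operated on at 8 weeks of age without removal of the ovaries and received a subcutaneous vehicle pellet. The utricle was taken 4 weeks later. The series also holds 3 ovariectomized groups, which were not compared here. Whether a library came from 1 animal or from both ears is not given in the sources used here. The spread between libraries may therefore be biological or technical. No groups were tested against each other, since the 5 libraries are 1 group, and every difference given here is a description.

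The utricle is the otolith organ of the inner ear that senses linear acceleration and head tilt. Its macula holds hair cells and supporting cells under an otolithic membrane, on which calcium carbonate crystals, the otoconia, rest. Around the macula lie transitional cells and dark cells, of which the dark cells secrete the potassium-rich endolymph. Melanocytes, fibrocytes, vessels and nerve fibers lie beneath these cells.

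The input of each library was 1 ng of RNA, and the QuantSeq kit used reads the 3′ ends of polyadenylated transcripts, so that a transcript gives about 1 fragment whatever its length. Levels are given in CPM, the count of a gene after scaling its library to 1000000 counts, and levels of different genes were compared on this scale without division by length. The libraries held 1507719 to 2053255 counts, and 8651 to 10625 genes had a count. Of the 25655 genes in the table, 13417 were counted in these libraries, and 4842 had at least 3 counts in each of them. Detection was set at 3 counts, which is 1.46 to 1.99 CPM. A gene with no count was below that level in the counts of a library, which does not limit its level in the tissue. Of the 3924 genes with a mean of 30 to 100 CPM, 25.6% had a library without a count. The reads carried no molecular identifiers, so the limit of 3 counts covers counting error only. No counts of *Eif2s3y*, *Kdm5d* and *Uty* of the Y chromosome were found, and *Ddx3y* had 1 count in replicate 4. *Xist* was not analysed here. Of the 10 pairs of libraries, 0 had identical counts.

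The most abundant transcript of the utricle was *Ptgds*, which encodes lipocalin-type prostaglandin D synthase, an enzyme that also carries small lipophilic molecules. It had 85939, 37322, 39966, 43311 and 45432 CPM in replicates 1 to 5. Replicate 1 stood above the other 4 libraries, which lay close together. The 10 most abundant genes took 15.5% ± 1.05 (SD, n = 5) of the counts, and the 100 most abundant 31.2% to 32.1%. In each library 456 to 486 genes made up 50% of the counts. Among the 20 genes of highest mean CPM were 10 of the 13 mitochondrially encoded genes, 3 ribosomal protein genes and 7 others, of which 6 are described here.

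*Apod*, apolipoprotein D, had 14264, 8002, 7291, 7671 and 7474 CPM. *S100b*, a calcium-binding protein of glia and of some inner ear cells, had 11427, 5858, 5463, 6306 and 7647 CPM. In both genes replicate 1 was the highest library. *Coch*, which encodes cochlin, an extracellular protein of inner ear fibrocytes, had 8535, 4164, 4402, 4772 and 4386 CPM. *Apoe*, apolipoprotein E, had 6737, 4031, 4378, 4551 and 4417 CPM. Replicate 1 again lay outside the range of the others for both genes. *Hsp90ab1*, a chaperone, was more even, with 3766, 3298, 3266, 3766 and 4312 CPM. The 3 ribosomal protein genes were *Rps29* (4309 ± 732 CPM), *Rps21* (3849 ± 626 CPM) and *Rplp1* (3804 ± 381 CPM; SD, n = 5 each).

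**Figure D1:**
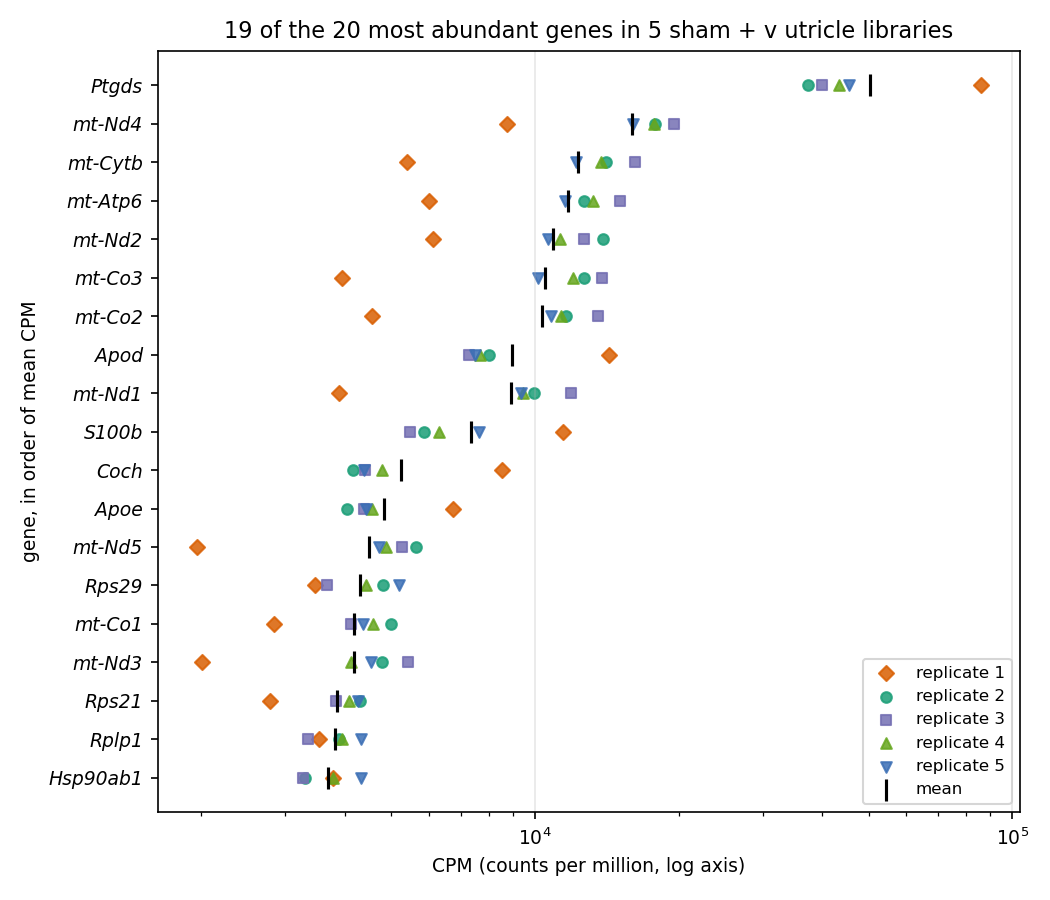
CPM of 19 of the 20 most abundant genes (log axis) in each of the 5 sham + v libraries, with the mean as a black bar. *Ptgds* lies above every other gene. Replicate 1 is the highest library for *Ptgds*, *Apod*, *S100b*, *Coch* and *Apoe* and the lowest for the mitochondrially encoded genes.

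The 100 most abundant genes held 28 ribosomal protein genes, 12 mitochondrially encoded genes, 6 heat shock proteins and 4 carriers of lipophilic molecules. They held 3 genes of the otoconial and otolithic membrane matrix, 2 of fibrocytes, 2 of Schwann cells and 1 of dark cells. A further 2 were housekeeping genes and 2 antioxidant enzymes. None of the 29 gene lists and 3 gene families looked up held 38 of them. The 5 most abundant of these, other than genes of the 20 above, were chosen after their values were seen. They were *Tpt1* (2195 ± 204 CPM), a translationally controlled protein, *Psap* (2155 ± 364 CPM), the precursor of the lysosomal saposins, *Itm2b* (2089 ± 243 CPM), an integral membrane protein, *Zbtb20* (2080 ± 234 CPM), a zinc finger transcription factor, and *S100a1* (2017 ± 312 CPM), a calcium-binding protein (SD, n = 5 each).

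Markers of the cell types known in the utricle were looked up next. A summed level of markers in whole tissue cannot tell fewer cells of a type from less RNA per cell, and the sums depend on which genes a list holds. The order of the sums below is therefore no order of cell numbers.

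All 11 genes on the list of the otoconial and otolithic membrane matrix had a count, and they summed to 6694 ± 1081 CPM (SD, n = 5). The leading member was *Otog*, encoding otogelin, a glycoprotein of the acellular membranes of the inner ear, with 1305, 4099, 3055, 2092 and 3361 CPM. *Sparcl1*, an acidic matrix glycoprotein found in otoconia, had 1697, 1767, 2016, 1626 and 1179 CPM. *Sparc*, its calcium-binding relative, had 1361, 1664, 1598, 1572 and 1327 CPM and counted among the steady genes described below. *Otog* was lowest in replicate 1, whereas *Sparc* and *Sparcl1* were not set apart in any library. *Otol1*, encoding otolin-1, a collagen-like scaffold protein of otoconia, had 98.9, 122, 261, 219 and 233 CPM. *Spp1*, encoding the phosphoprotein osteopontin, had 735, 330, 328, 270 and 326 CPM and was highest in replicate 1. Other genes needed for otoconia to form were lower. *Oc90*, the principal protein of otoconia, had 12.4 CPM in replicate 3, 3.98 CPM in replicate 5 and no count in the other 3 libraries. *Otop1*, the proton channel otopetrin 1, had 14.5 CPM in replicate 4 and 7.30 CPM in replicate 5 and no count elsewhere. *Nox3*, an NADPH oxidase needed for otoconia to form, had 124 CPM in replicate 4, 81.6 CPM in replicate 5, 1.05 CPM in replicate 2 and no count in replicates 1 and 3. *Oc90*, *Otop1* and *Nox3* were chosen after their values were seen.

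Hair cell markers summed to 3188 ± 807 CPM (SD, n = 5), and 26 of the 29 reached a mean of 1 CPM. The leading members were *Ush1c* (443 ± 135 CPM), encoding harmonin of the hair bundle, *Myo6* (364 ± 141 CPM), an unconventional myosin, *Pou4f3* (338 ± 161 CPM), a transcription factor of hair cell survival, *Smpx* (329 ± 129 CPM) and *Kcna10* (287 ± 58.0 CPM), a potassium channel. The sum was 2493, 4328, 3452, 2333 and 3332 CPM in replicates 1 to 5, lowest in replicate 4 and highest in replicate 2. *Pou4f3* was likewise lowest in replicate 4, with 254, 449, 282, 151 and 552 CPM, as was *Smpx* with 149 CPM. *Ush1c* (307 CPM) and *Myo6* (191 CPM) were lowest in replicate 1, and *Kcna10* (227 CPM) in replicate 3. Of the 12 hair cell genes with a mean of 100 CPM or more, 5 varied, their highest library being at least 4 times the lowest, against 25.1% of all 1765 genes of that level. *Slc26a5*, the motor protein prestin and defining marker of cochlear outer hair cells, and *Atoh1*, the transcription factor that starts hair cell formation, had no count in any library. At this depth a level under 3 counts cannot be told from none.

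Supporting cell markers summed to 2509 ± 521 CPM (SD, n = 5), with 14 of 15 at a mean of 1 CPM or more. They were led by *Gjb6* (630 ± 200 CPM) and *Gjb2* (489 ± 129 CPM), the connexins 30 and 26 of inner ear gap junctions, by *Slc1a3* (526 ± 145 CPM), a glutamate transporter, by *Sox9* (297 ± 108 CPM) and by *Otoa* (174 ± 39.4 CPM), encoding otoancorin, which anchors the acellular membranes. None of the 6 members with a mean of 100 CPM or more varied by the same rule, where the share over all genes was 25.1%. *Hes5*, a target of Notch signalling that is high in developing supporting cells, had no count.

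The dark and transitional cell list summed to 2638 ± 1006 CPM (SD, n = 5) and was led by *Atp1b2*, the beta2 subunit of the sodium and potassium pump, with 472, 1165, 2028, 1775 and 2057 CPM. *Slc12a2*, the cotransporter that loads dark cells with potassium, had 380, 520, 802, 527 and 725 CPM. *Kcne1* and *Kcnq1*, the subunits of the channel through which potassium enters the endolymph, averaged 252 ± 103 and 105 ± 49.0 CPM (SD, n = 5). *Atp1b2* and *Slc12a2* were lowest in replicate 1, as was *Kcnq1* with 39.4 CPM, whereas *Kcne1* was lowest in replicate 2 with 141 CPM against 184 CPM in replicate 1. *Esrrb*, an orphan nuclear receptor of endolymph-secreting cells, had 16.6, 76.1, 105, 122 and 129 CPM. Melanocyte markers summed to 761 ± 314 CPM and came mostly from *Dct*, dopachrome tautomerase, with 989, 667, 503, 462 and 311 CPM. *Tyrp1*, another enzyme of pigment synthesis, had no count.

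Fibrocyte and connective tissue markers, all 15 of which had counts, summed to 9490 ± 2854 CPM (SD, n = 5). Besides *Coch*, the list was led by *Otos*, encoding otospiralin of inner ear fibrocytes, with 2816, 1640, 1942, 1410 and 2414 CPM, and by *Dcn*, the proteoglycan decorin, with 1261, 540, 397, 552 and 562 CPM. *Igfbp5*, a binding protein of insulin-like growth factors, had 537 ± 121 CPM and *Col1a2*, a chain of type I collagen, 207 ± 104 CPM. The 44 collagen genes together gave 1794 ± 317 CPM, and 14 of them had no count. The most abundant collagens were *Col9a2* (325 ± 82.4 CPM), *Col27a1* (236 ± 69.7 CPM) and *Col11a2* (224 ± 143 CPM), of which the last 2 were highest in replicate 1 with 353 and 466 CPM.

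The Schwann cell and myelin list summed to 11180 ± 2260 CPM (SD, n = 5), of which *S100b* gave the larger part. Without *S100b*, which other cells of the inner ear also express, the sum was 3840 ± 1325 CPM, an alternative chosen after the values were seen. *Mbp*, myelin basic protein, had 319, 531, 823, 443 and 1011 CPM. It was highest in replicates 5 and 3 and lowest in replicate 1. *Sox10*, a transcription factor of Schwann cells and melanocytes, had 351 ± 100 CPM. Neuronal markers summed to 393 ± 55.6 CPM, led by *Nefm* with 185, 181, 130, 146 and 119 CPM and *Nefl* with 60.6 ± 20.6 CPM, the medium and light neurofilament proteins. *Nefh*, the heavy neurofilament protein, and *Gap43*, a protein of growing axons, had no count.

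Endothelial markers summed to 224, 519, 605, 605 and 493 CPM, and *Kdr*, a receptor of vascular endothelial growth factor, to 55.5, 219, 304, 294 and 267 CPM. Replicate 1 was the lowest in both. Markers of pericytes and smooth muscle summed to 172 ± 66.1 CPM (SD, n = 5), led by *Rgs5*, and *Abcc9* and *Cspg4* had no count. Macrophage markers summed to 1149, 416, 431, 314 and 480 CPM. *Lyz2*, lysozyme of myeloid cells, had 585, 220, 257, 226 and 177 CPM and *C1qb*, a complement subunit, 139, 89.2, 26.7, 20.1 and 0.663 CPM. Replicate 1 was the highest in each, while *Aif1* had no count in any library.

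**Figure D2:**
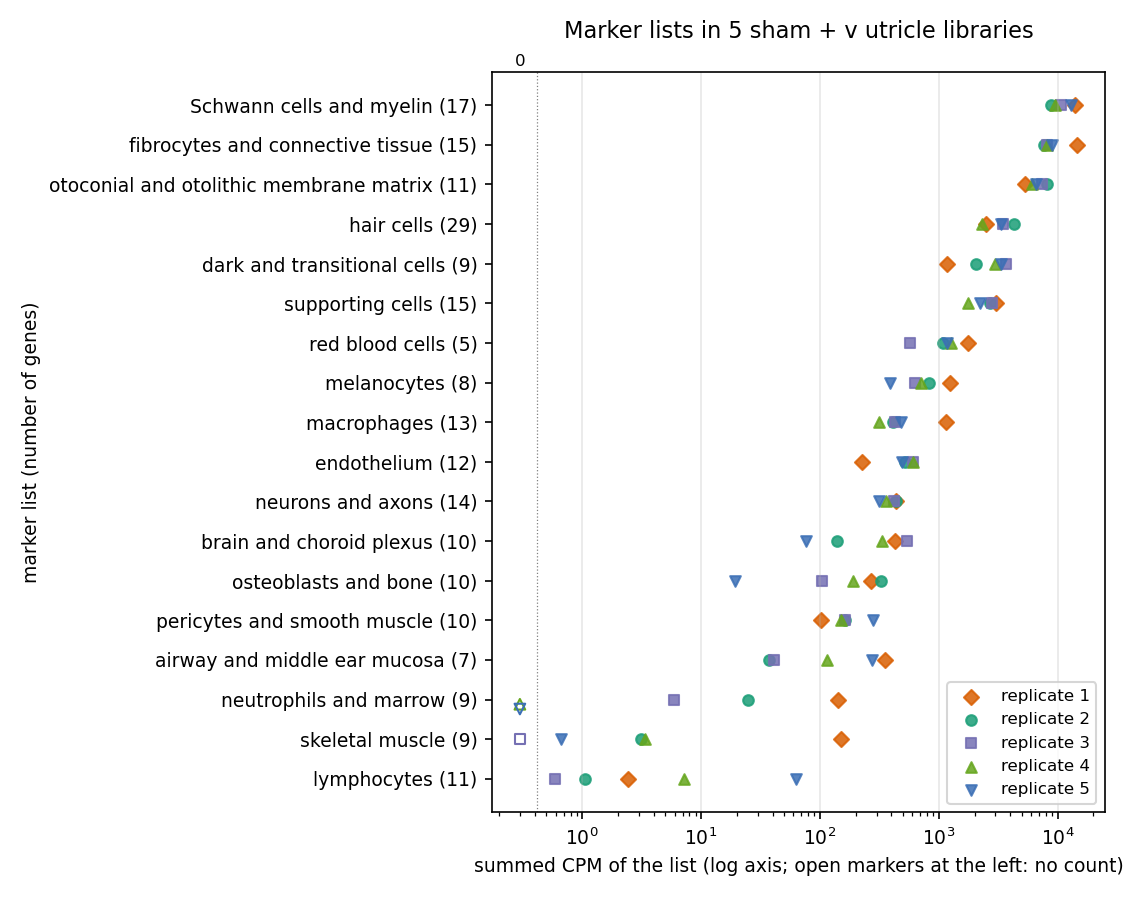
Summed CPM of 18 lists of cell type markers (log axis) in each sham + v library, with the number of genes of each list in parentheses and libraries without a count as open markers at the left. The lists for otoconial matrix, hair cells, supporting cells, dark cells, fibrocytes and Schwann cells lie above 1000 CPM in every library, and those for skeletal muscle, neutrophils and lymphocytes reach at most 150 CPM in any library.

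Markers of skeletal muscle, blood cells, bone and mucosa were counted unequally between the libraries, and where these transcripts came from was not tested. Skeletal muscle markers summed to 150 CPM in replicate 1 and to at most 3.35 CPM in the others. *Myh4*, a fast myosin heavy chain, had 61.9 CPM and *Tnnc2*, fast troponin C, 23.9 CPM in replicate 1, and neither had a count elsewhere. The mean of the muscle sum was 31.4 CPM with replicate 1 and 1.79 CPM without it. Neutrophil and marrow markers summed to 142, 24.7 and 5.93 CPM in replicates 1 to 3 and to 0 in replicates 4 and 5, with a mean of 34.5 CPM, or 7.65 CPM without replicate 1. *S100a8* had 50.2 CPM, *S100a9* 19.5 CPM and *Ngp* 35.1 CPM in replicate 1. *S100a8* had 24.7 CPM in replicate 2 as well, while *Elane*, *Mpo* and *Retnlg* had no count in any library. Lymphocyte markers averaged 14.9 CPM, or 2.84 CPM without replicate 5, where *Cd79a*, a component of the B cell receptor, had 62.3 CPM. Of the 11 lymphocyte markers 8 had no count, among them *Cd3e*, *Cd4*, *Cd8a* and *Ms4a1*.

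Bone markers summed to 272, 328, 105, 190 and 19.2 CPM, led by *Ibsp*, bone sialoprotein, with 174, 95, 16.6, 130 and 0 CPM. Mucosal markers of the airway and middle ear summed to 355, 37.3, 41.5, 116 and 272 CPM, led by *Bpifa1*, a secreted protein of airway epithelium, with 328, 0, 1.19, 85.5 and 167 CPM. *Foxj1*, a transcription factor of ciliated cells, had 22.9, 37.3, 40.3, 30.2 and 69 CPM and gave nearly all of the sum in replicates 2 and 3. These 2 lists were not shared evenly, replicate 5 being the lowest in the first and replicate 2 in the second. The list for brain and choroid plexus summed to 305 ± 197 CPM (SD, n = 5), most of it *Ttr*, the thyroxine carrier transthyretin, with 420, 139, 545, 310 and 0 CPM. Of the other 9 members, *Folr1*, *Gfap*, *Mog*, *Mobp*, *Opalin* and *Neurod1* were at 0 in all 5 libraries. *Kl* had 12.2 CPM in replicate 1 and 53.1 CPM in replicate 5, *Aqp4* 23.2 CPM in replicate 5 and *Slc17a7* 23.5 CPM in replicate 4, so that the sum of 76.3 CPM in replicate 5 held no *Ttr*. Markers of proliferation averaged 43.9 CPM, or 21.2 CPM without replicate 5, with *Pcna* at 102 CPM and *Mcm2* at 32.5 CPM in that library. *Top2a* and *Ccnb1* had no count, and *Mki67* had 14.6 CPM and *Cdk1* 10.2 CPM in replicate 1 and neither had a count in the others.

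Red blood cell genes summed to 1171 ± 421 CPM (SD, n = 5). The last 90 coding bases of the paired globin genes are shown because the 3′ reads fall near them, and 1 base, in capitals, differs within each pair. *Hba-a1* lies on the plus strand of GRCm39 at chr11:32234302-32234391 and *Hba-a2* at chr11:32247119-32247208. *Hbb-bs* lies on the minus strand at chr7:103475872-103475961 and *Hbb-bt* at chr7:103461863-103461952 (GENCODE vM39, 5′ to 3′ in the direction of the gene, each ending with the stop codon).
Hba-a1: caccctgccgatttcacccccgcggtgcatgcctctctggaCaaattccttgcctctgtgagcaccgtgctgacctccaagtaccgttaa
Hba-a2: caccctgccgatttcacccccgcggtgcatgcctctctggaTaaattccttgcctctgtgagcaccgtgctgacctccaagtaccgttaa
Hbb-bs: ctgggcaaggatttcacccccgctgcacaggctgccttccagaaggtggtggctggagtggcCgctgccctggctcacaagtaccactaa
Hbb-bt: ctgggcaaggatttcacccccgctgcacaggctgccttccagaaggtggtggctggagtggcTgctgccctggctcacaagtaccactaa
Of the 63-base windows in the last 400 bases of the transcript, 74.6% were identical between *Hba-a1* and *Hba-a2* and 52.4% between *Hbb-bs* and *Hbb-bt*, 63 bases being the greatest length of a trimmed read. Shorter reads can match both genes where these windows differ. The split of counts within each pair is therefore uncertain. The sum of *Hba-a1* and *Hba-a2* was 1033, 518, 383, 838 and 773 CPM, and that of *Hbb-bs* and *Hbb-bt* 695, 571, 188, 432 and 408 CPM. Replicate 1 was the highest and replicate 3 the lowest in both. *Alas2*, the first enzyme of heme synthesis in red cell precursors, had 18 CPM in replicate 1 and no count in the others.

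Genes of hormone and stress responses were described in the same way. The list of estrogen receptors and targets was among the lowest, with a sum of 130 ± 66.2 CPM (SD, n = 5). *Esr1*, estrogen receptor alpha, had 88 counts (46.2 CPM) in replicate 2 and no count in the other 4 libraries. *Esr2*, estrogen receptor beta, had 4 counts in replicate 2 alone and *Gper1*, a membrane estrogen receptor, 5.93 CPM in replicate 3 alone. *Pgr*, the progesterone receptor and a classical target of estrogen, had no count. The receptor transcripts were thus under 3 counts in most libraries, which does not limit their level in the tissue. The coactivators *Ncoa1* (34.7 ± 12.4 CPM) and *Ncoa3* (37.8 ± 32.6 CPM) had at least 3 counts in 5 and 4 libraries, and *Ncoa2* in 3, at 20.5 to 50.4 CPM. *Esrra*, an orphan receptor, had 69.6 CPM in replicate 5 and at most 4.15 CPM in the others, and *Greb1*, another estrogen target, had 26.3 and 18.6 CPM in replicates 1 and 5 alone.

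Glucocorticoid receptor and target genes summed to 1601 ± 413 CPM (SD, n = 5), mainly the metallothioneins *Mt1* (586 ± 125 CPM) and *Mt2* (511 ± 205 CPM). *Tsc22d3*, the glucocorticoid-induced leucine zipper, had 152, 38.3, 78.2, 120 and 172 CPM. Immediate early genes, which rise within minutes of stimulation, summed to 522 ± 115 CPM, and *Fos*, *Egr3* and *Atf3* had no count in any library. *Jund* had 240, 212, 206, 155 and 168 CPM and was the only member with a mean of 100 CPM or more. Clock genes summed to 1126, 1264, 1210, 787 and 1199 CPM, led by *Nr1d2* (220 ± 53.1 CPM), a nuclear receptor of the clock, and *Tef* (182 ± 109 CPM). The sum was lowest in replicate 4, as was *Per1* with 37.5 CPM, whereas *Dbp* was lowest in replicate 1 with 82.8 CPM and *Tef* in replicate 3 with 70.5 CPM. Interferon-stimulated genes summed to 1458, 1272, 669, 994 and 521 CPM, led by *Ifi27* (400 ± 123 CPM) and *Ifi27l2a* (276 ± 115 CPM).

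Antioxidant enzymes summed to 5915 ± 874 CPM (SD, n = 5), all 17 of them with counts. *Sod1*, cytosolic superoxide dismutase, had 1066, 959, 929, 933 and 1092 CPM, whereas *Sod3*, the extracellular form, had 221, 1246, 1250, 2330 and 1649 CPM. *Sod3* was lowest in replicate 1, and *Sod1* was among the steadiest genes of the utricle. *Gpx3*, a secreted glutathione peroxidase, had 616 ± 178 CPM, *Gstm1*, a glutathione transferase, 453 ± 98.0 CPM and *Prdx5*, a peroxiredoxin, 425 ± 49.8 CPM. Heat shock proteins summed to 10631 ± 1077 CPM, led by *Hsp90ab1*, *Hspb1* (1398 ± 512 CPM), *Cryab* (1276 ± 371 CPM), *Hsp90aa1* (1260 ± 278 CPM) and *Hspa5* (1156 ± 175 CPM).

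The libraries differed from each other far more than the counting of reads alone would give. Among the 1322 genes with a mean of 100 to 300 CPM, the median CV (SD over mean) was 0.422, against 0.0618 from counting. Among the 93 genes with 1000 CPM or more it was 0.195, against 0.0194. The spread thus fell as the level rose, but stayed 6.82 to 10.1 times the counting part in these ranges. The median CV of the lower range was the one that 38001 independent counts per library would give, and of the higher range 17476. Of the 3924 genes with 30 to 100 CPM, 25.6% had a library without a count, and of the 1322 genes with 100 to 300 CPM 0.983%. The part of the small RNA input and of amplification in this spread was not tested. Across the 1765 genes with a mean of at least 100 CPM, log2(CPM + 1) of 2 libraries correlated with Pearson's r of 0.637 to 0.722 over the 10 pairs. These are correlations across genes, which are not independent replicates, and the libraries share the same preparation. The common biological coefficient of variation of edgeR was 0.470 over these genes.

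**Figure D3:**
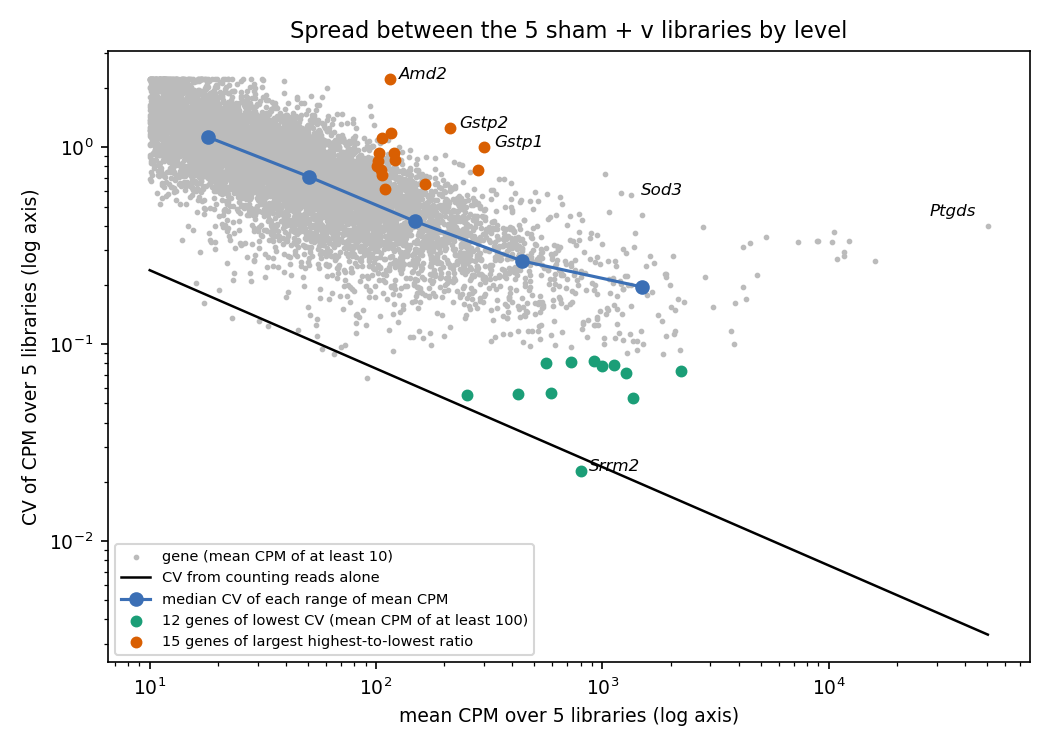
CV over the 5 sham + v libraries against mean CPM (both axes log) for genes with a mean of at least 10 CPM, with the CV expected from counting reads alone as a black line and the median CV of each range of mean CPM in blue. Nearly all genes lie above the counting line, *Srrm2* lies just below it, and *Amd2*, *Gstp2* and *Gstp1* stand at the top of their range.

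A gene with a mean of at least 100 CPM was called steady here when its highest library was at most 1.5 times its lowest, and varying when it was at least 4 times its lowest, a library under 3 counts being set to 3 counts. Of 1765 genes, 130 (7.37%) were steady and 443 (25.1%) varying. At the limits, *Rpl27a* had a ratio of 1.4997 and was just inside the steady genes, and *Trip6* at 1.5006 was just outside. *Cds2* at 4.002 was just inside the varying genes and *H3f3b* at 3.98 just outside. The calls went with the level. Of genes with 100 to 300 CPM 1.89% were steady and 32.1% varying, and of genes with 1000 CPM or more 38.7% were steady and 3.23% varying. A comparison of a list with the share over all genes therefore mixes its level with its spread.

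Ribosomal protein genes held more steady members than any other list, with 35 of 79 steady and 4 varying (7.37% and 25.1% over all genes), and their sum was 74988, 83216, 72082, 84583 and 76485 CPM. Their median CV was 0.182. The gene of lowest CV in the utricle was *Srrm2*, a large splicing factor, with 793, 836, 789, 809 and 805 CPM (CV 0.0227). It was followed by *Rps25* (1287 to 1485 CPM), *Gabarapl2* (229 to 262 CPM), a protein of autophagosomes, *Arf1* (398 to 454 CPM), a small GTPase of the Golgi, and *Atp5a1* (553 to 642 CPM), a nuclear-encoded subunit of ATP synthase. *Rpl31*, *Eef1a1*, *Sod1*, *Gsn*, *Rps15*, *Sumo3* and *Rpl36a* completed the 12 genes of lowest CV, all at or below 0.0818. *Gsn* encodes gelsolin, an actin-severing protein, and had 1033, 1133, 1102, 1079 and 1266 CPM. *Sumo3*, a small modifier of proteins, had 667 to 789 CPM.

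The 15 usual reference genes were looked up as well. *Eef1a1*, a translation factor, had 2001, 2165, 2164, 2302 and 2430 CPM (CV 0.0730) and was the only steady one among the 9 with a mean of 100 CPM or more, against 7.37% of all genes of that level. *Actb*, beta-actin, had 1645, 2332, 2517, 2419 and 2563 CPM (CV 0.163), *Pgk1* a CV of 0.177 and *Ppia* one of 0.231. *Actb* was lowest in replicate 1, where *B2m* was highest with 1177 CPM against 538 to 752 CPM in the others. *Rplp0* ranged from 412 to 982 CPM, *Sdha* from 108 to 300.5 CPM and *Ywhaz* from 138 to 366 CPM. *Gapdh*, a glycolytic enzyme whose many processed pseudogenes can share its reads, had only 79.4, 22.6, 66.4, 49.2 and 1.33 CPM. *Hprt* had 0, 36.2, 5.93, 2.24 and 31.2 CPM, and *Tbp* 49.2, 55.6, 40.9, 20.1 and 37.1 CPM. *Gusb* and *Tfrc* were also under 100 CPM on average and at 0 in 1 library each.

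Among the 15 genes with the largest ratio of highest to lowest library were *Gstp1*, *Gstp2*, *Amd2*, *Ttr*, *Bpifa1*, *Cab39l*, *Eno1b*, *Car14*, *Slpi*, *Eif4a3*, *Mfap1a*, *Rab5if*, *Tpm3* and *Ccdc88a*. Each of them had 3 counts or fewer in at least 1 library. *Car14*, a membrane-bound carbonic anhydrase, had 262, 13.6, 148, 175 and 0 CPM. *Slpi*, a secreted inhibitor of leukocyte proteases, had 0, 52.0, 178, 190 and 106 CPM, and *Eif4a3*, a helicase of the exon junction complex, 255, 123, 52.2, 83.3 and 0 CPM. *Cab39l* had 50.7, 141, 140, 0.559 and 274 CPM and *Ccdc88a* 182, 18.9, 183, 127 and 1.99 CPM. The libraries that were low were not the same from gene to gene. Over all 443 varying genes, replicates 1 to 5 were the highest in 63, 80, 90, 95 and 115 genes and the lowest in 118, 81, 74, 84 and 86.

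Of the 15 most varying genes, 6 shared a 63-base window of their transcript end with another gene, against 63 of the 1764 genes with 100 CPM or more and a transcript of the same Ensembl identifier (3.57%). Over all varying genes the share was 4.07%, and over the steady genes 5.38%, both near the share over all genes. *Gstp1* and *Gstp2*, neighboring genes for pi-class glutathione transferases, are the clearest pair. Their last 90 coding bases, on the minus strand of GRCm39 at chr19:4085473-4085562 and chr19:4090351-4090440 (GENCODE vM39), differ at 0 positions.
Gstp1: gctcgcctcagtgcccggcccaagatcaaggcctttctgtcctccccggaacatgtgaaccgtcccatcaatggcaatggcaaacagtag
Gstp2: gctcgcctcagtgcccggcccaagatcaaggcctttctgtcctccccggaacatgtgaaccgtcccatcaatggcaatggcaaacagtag
Of the windows in the last 400 bases 90.8% were identical. *Gstp1* gave 100%, 0%, 96.6%, 0% and 90.9% of the joint counts in replicates 1 to 5, so that almost every library was assigned to 1 of the genes. The sum of the pair was 431, 596, 384, 376 and 773 CPM, with a CV of 0.334 against 1.00 for *Gstp1* and 1.25 for *Gstp2*.

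The same was seen for other pairs. *Eno1*, the glycolytic enzyme enolase 1, and *Eno1b* summed to 231, 179, 279, 159 and 275 CPM (CV 0.243), with all counts on *Eno1b* in replicates 1 to 3 and all on *Eno1* in replicate 5. *Amd2* had 575 CPM in replicate 4 and no count elsewhere. Its paralog *Amd1*, an enzyme of polyamine synthesis, had 1149, 1212, 1156, 410 and 798 CPM, and the sum was 986 CPM in replicate 4 (CV of the sum 0.160). In *Gstp1* and *Gstp2*, *Eno1* and *Eno1b*, and *Amd1* and *Amd2* the sum varied less than either member. The globin pairs shown above were less clear, since the sum of *Hbb-bs* and *Hbb-bt* had a CV of 0.415 against 0.371 for *Hbb-bs*, and that of *Hba-a1* and *Hba-a2* 0.365 against 0.387 for *Hba-a2*. *Tpm3* and *Tpm3-rs7*, tropomyosin genes, had a sum of 153, 171, 155, 97.8 and 126 CPM, in which replicate 3 was counted on *Tpm3-rs7* alone. *Mfap1a* and *Mfap1b*, genes of a spliceosome protein, summed to 106, 175, 201, 178 and 105 CPM (CV 0.291), and replicate 4 was counted on *Mfap1b* alone. The transcript ends of *Amd1* and *Amd2*, and of *Mfap1a* and *Mfap1b*, shared 0% of their windows in the canonical transcripts used, and the whole transcripts 82.3% and 60.7%. Of the 25 genes with at least 50% shared windows, 9 were varying as counted (25.1% over all genes) and 2 when summed with their partners, and their median CV was 0.387 and 0.243, respectively. Such genes made up 2.04% of the varying and 2.31% of the steady genes, against 1.42% of all. A sum also has a higher level than its members, and the spread fell with the level, so how much of the drop belongs to shared reads was not tested. How reads matching more than 1 gene were counted is not given in the sources used here, and its part in these values was not tested.

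**Figure D4:**
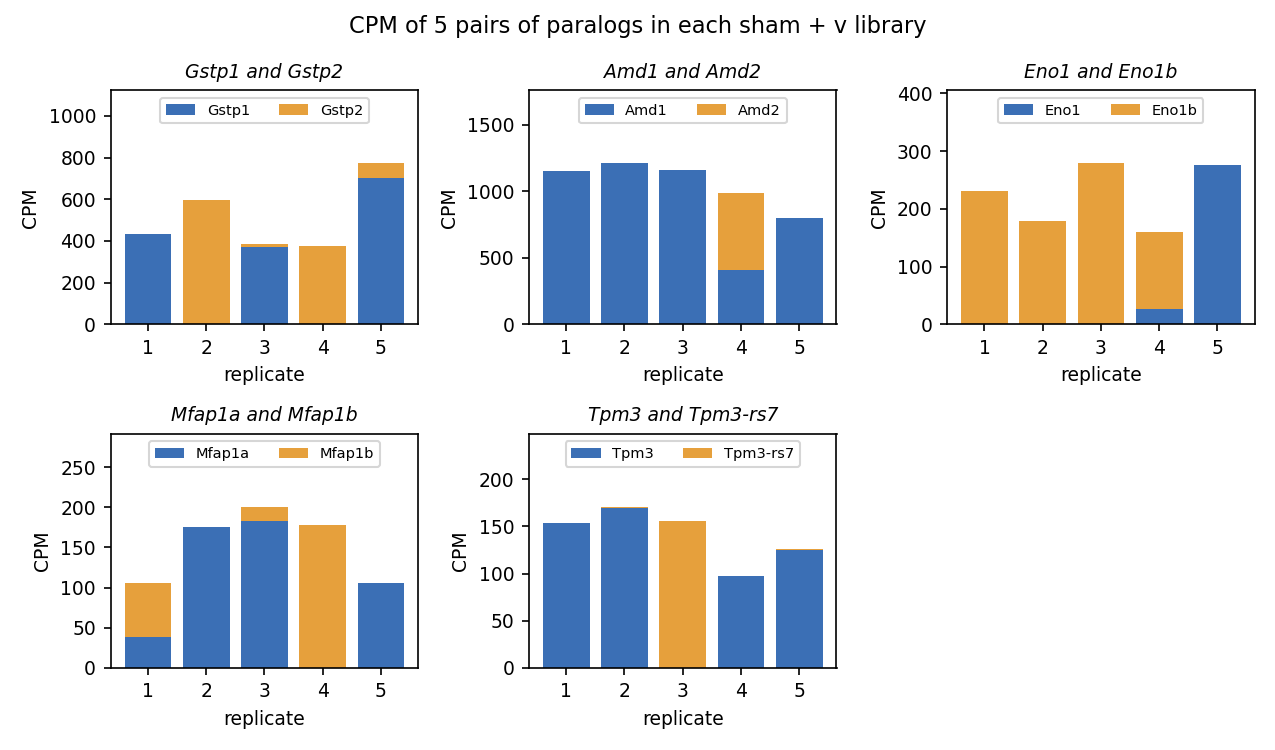
CPM of 5 pairs of paralogs in each sham + v library, as stacked bars from 0, 1 panel for each pair. The color of the bars switches between libraries within a pair, for example in replicates 2 and 4 for *Gstp1* and *Gstp2*, while the full height moves less.

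Replicate 1 differed from the other 4 libraries in several gene groups at once. Of 1765 genes, 68 (3.85%) were at least 1.5 times as high in replicate 1 as in each other library and 181 (10.3%) were lower by that factor. For the other replicates these numbers were 41 to 89, the most in replicate 5, and 98 to 127. The median Pearson's r of a library with the other 4 was 0.681 for replicate 1 and lowest for replicate 5, at 0.659. The mitochondrially encoded genes, which encode subunits of the respiratory chain and ATP synthase, summed to 48038 CPM in replicate 1 and to 113629, 122860, 107149 and 99198 CPM in replicates 2 to 5. All 13 genes were lowest in replicate 1, and for 12 of them each other library was at least 1.5 times as high, led by *mt-Nd4* with 8753 CPM against 16040 to 19555 CPM and *mt-Cytb* with 5405 CPM against 12178 to 16205 CPM. In contrast, the carriers of lipophilic molecules summed to 109609 CPM in replicate 1 and to 50675 to 58324 CPM in the others. *Clu*, the extracellular chaperone clusterin, was part of this with 1897, 877, 990, 1039 and 541 CPM. *Otor*, chosen after its values were seen, encodes otoraplin, a secreted protein of the inner ear, and had 2287, 974, 895, 699 and 294 CPM.

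By cell type, replicate 1 held 1.76 times the mean of the other 4 libraries in fibrocyte markers, 2.80 times in macrophage markers and 1.95 times in melanocyte markers. It was the highest library for 7 of the 15 fibrocyte, 9 of the 13 macrophage and 3 of the 8 melanocyte markers. *Coch* gave the largest part of the fibrocyte sum, while *Igfbp5* stood at 0.745 times that mean. *Dct* gave most of the melanocyte sum, while *Pmel* stood at 0.990 and *Mitf* at 0.0833 times that mean. Replicate 1 held 0.392 times that mean in dark and transitional cell markers and 0.403 times in endothelial markers. It was the highest library for 0 members of each of these lists. *Atp1b2* (0.269 times) gave the larger part of the dark cell sum, and *Kcne1* stood at 0.682 times that mean. *Kdr* (0.205 times) led the endothelial list, while *Egfl7* stood at 1.46 times that mean. Hair cell markers stood at 0.742 and supporting cell markers at 1.29 times that mean, and housekeeping genes at 0.880 times. The Schwann cell list stood at 1.34 times that mean with *S100b*, but without it replicate 1 was the lowest library, with 2564 CPM against 2964 to 5425 CPM. Skeletal muscle, neutrophil and red cell genes were highest in the same library. The differences between the 5 libraries in what was dissected with the macula, and their part in these values, were not tested.

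**Figure D5:**
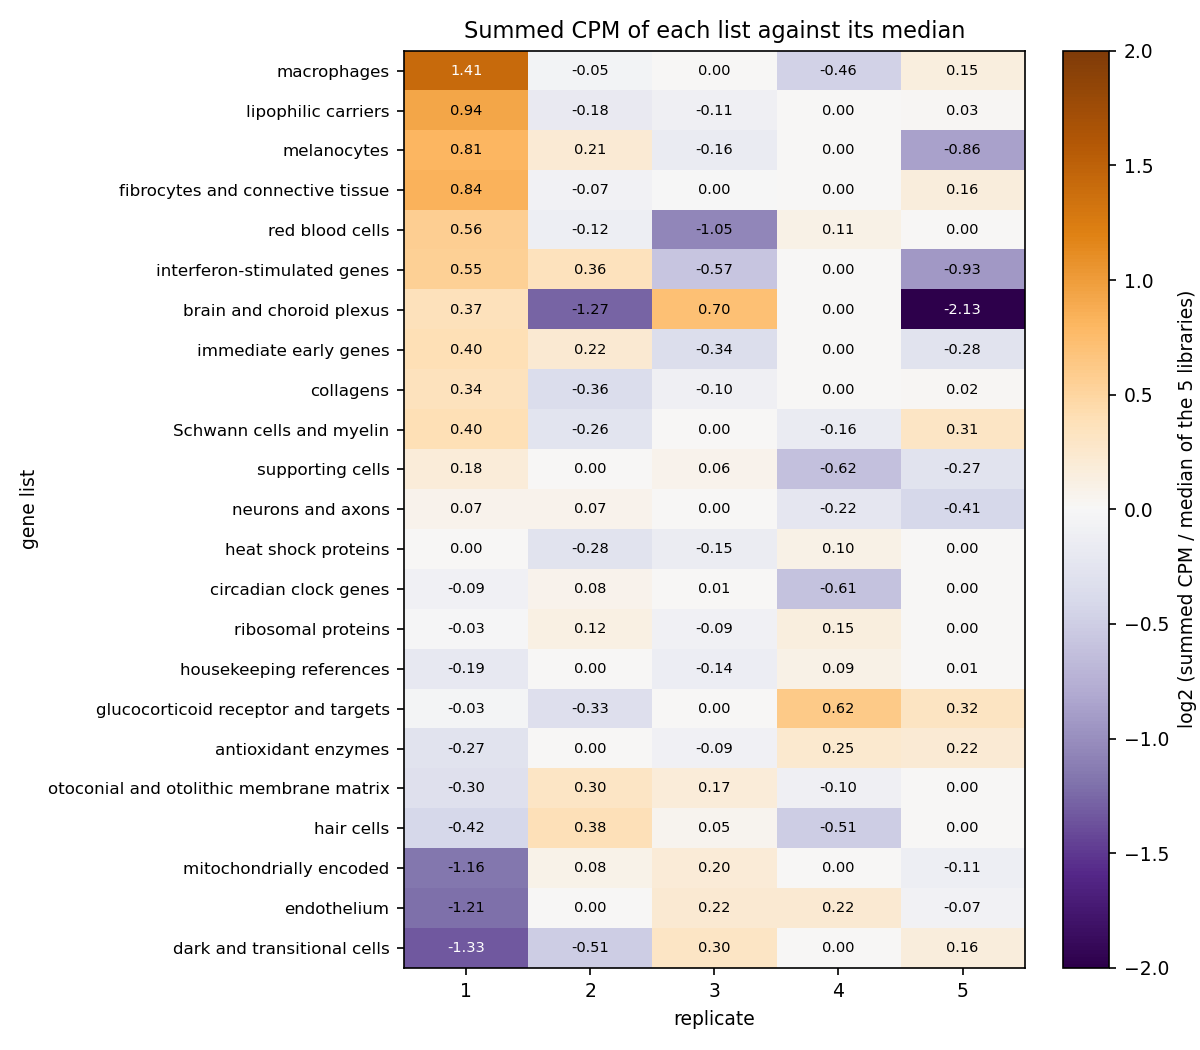
Log2 ratio of the summed CPM of each gene list in a library to the median of the 5 libraries, for lists with a mean sum of at least 300 CPM, ordered by the ratio of replicate 1 to the others. Replicate 1 reaches 1.41 for macrophages and -1.33 for dark and transitional cells, and ribosomal proteins stay between -0.09 and 0.15 in all libraries. The Schwann cell list is drawn with *S100b* and is raised in replicate 1. Its sum without *S100b*, which is not drawn, was lowest in that library.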

How the data were processed

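RNA of the utricle was sequenced by the authors in 20 libraries, of which the 5 sham + v libraries were used here, grouped by the treatment in the labels and numbered 1 to 5. As the study's methods describe it, the reads were trimmed (12 nucleotides at the 5′ end, minimum length 20). By the same description they were mapped to GRCm39 at default settings in CLC Genomics Workbench. Its version and the way in which reads matching more than 1 gene were counted are not given in the sources used here. The deposited values are raw counts of reads per gene that the authors did not normalize. The table also holds normalized values and the authors' comparisons (fold changes, p-values and FDR), which were not used. It holds 0 columns of samples outside the series, and 0 rows name no gene.

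For CPM, counts were divided by the library total (1507719 to 2053255). Mean, SD and CV over the 5 libraries were computed in Python 3.11.15 with pandas 2.3.3 and numpy 2.4.6, the counting CV from the Poisson variance, and scaling factors in R 4.3.3 with edgeR 4.0.16 and DESeq2 1.42.0. No groups were tested against each other and no p-value was computed. Dixon's limit only marked libraries far from the others. The scripts were tested on simulated data. Sequence windows of 63 nucleotides were compared in the last 400 nucleotides of the canonical transcripts of GENCODE vM39.

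The gene lists and the rule for named genes were chosen with earlier results of these data known. The named genes were the 20 of highest mean CPM, up to 5 leading members of each list and its members without a count, the 12 of lowest CV and the 15 of largest highest-to-lowest ratio among genes of at least 100 CPM, the reference, sex check and estrogen lists, and paralogs of these. Some of these genes are not reported here. Of 344 list entries, *Xist* had no row, 1 named a gene already in its list and 2 were matched by synonym. The alternatives were TMM factors, DESeq2 size factors, totals without the 20 most abundant genes or without mitochondrially encoded genes, other limits and minima, and each library left out in turn.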

Additional observations from a re-analysis of the deposited data

Results flagged for a closer look

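In 44 of 219 genes and list sums, 1 of the 5 libraries stood further from the others than Dixon's 95% limit for 5 values (gap over range above 0.71). Chance marks about 1 in 20 sets of normally distributed values, but a gene counted in 1 library alone is marked by construction, and genes and list sums overlap, so the number of marks is not read as an excess. Replicate 1 was the highest library in 23 of them and the lowest in 2, and replicate 5 the highest in 11.

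In replicate 1, the abundant genes *Ptgds* (85939 CPM), *Apod* (14264 CPM), *Coch* (8535 CPM), *Apoe* (6737 CPM), *Dcn* (1261 CPM), *Spp1* (735 CPM) and *Lyz2* (585 CPM) were set apart upward, and *mt-Nd5* (1955 CPM) and *Actb* (1645 CPM) downward. The sums for lipophilic carriers (109609 CPM), fibrocytes (14520 CPM), macrophages (1149 CPM), skeletal muscle (150 CPM) and neutrophils (142 CPM) were set apart upward in the same library. So were the low genes *Myh4* (61.9 CPM), *Ngp* (35.1 CPM), *Camp* (31.7 CPM), *Atp2a1* (26.3 CPM), *Tnnc2* (23.9 CPM), *Myh1* (20.9 CPM), *S100a9* (19.5 CPM), *Alas2* (18 CPM), *Mki67* (14.6 CPM), *Cdk1* (10.2 CPM) and *Tnnt3* (7.31 CPM). They are genes of fast muscle, neutrophils, red cell precursors and dividing cells. Why they were counted in this library was not tested.

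In replicate 5, *Eno1* (275 CPM), *Pcna* (102 CPM), *Esrra* (69.6 CPM), *Acta2* (65.7 CPM), *Cd79a* (62.3 CPM), *Kl* (53.1 CPM), *Reg3g* (35.8 CPM), *Mcm2* (32.5 CPM) and *Aqp4* (23.2 CPM) and the sums for proliferation (135 CPM) and lymphocytes (63.0 CPM) were set apart upward. In replicate 4 these were *Amd2* (575 CPM) and *Slc17a7* (23.5 CPM), and the clock gene sum was set apart downward (787 CPM). In replicate 3 they were *Tpm3-rs7* (155 CPM), *Gusb* (60.5 CPM) and *Gper1* (5.93 CPM), and in replicate 2 *Bglap2* (65.1 CPM) and *Esr1* (46.2 CPM).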

How the results depend on the processing

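The scaling of the libraries changed little. TMM factors, DESeq2 size factors and totals without the 20 most abundant genes moved list sums to between 0.964 and 1.03 times their value and the mean CPM of named genes to between 0.958 and 1.03 times. The sum of Schwann cell markers was 3840 CPM without *S100b*, a setting added after the values were seen. Leaving out 1 library moved the mean CPM of 5 to 23 of 192 named genes by over 1.5 times, most often with replicate 1, along with the sums for skeletal muscle (1.79 CPM) and neutrophils (7.65 CPM) without replicate 1 and those for lymphocytes (2.84 CPM) and proliferation (21.2 CPM) without replicate 5. The number of steady genes depended on the limits chosen. It was 130 with a limit of 1.5 and 483 with a limit of 2, and 220 to 265 with each library left out in turn, where a range over fewer libraries is smaller by construction. The number of varying genes was 443, and 3517 among genes of at least 30 CPM, 19 among those of at least 300 CPM and 718 with a limit of 3, while leaving out libraries gave 332 to 365. The share of the 10 most abundant genes was 11.5% when mitochondrially encoded genes were left out of the totals. No paired analysis was possible because the libraries form 1 group. Genes under 1.46 to 1.99 CPM in a library were taken as undetected, and a missing count does not limit the level in the tissue. With 5 libraries from small amounts of RNA, genes under 100 CPM are described only by their values.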
